A study of Mus musculus with 37 samples.

Results

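The transcripts described here are 33 genes of the ependyma and the choroid plexus, chosen by symbol from a written list and found among the 21975 gene identifiers of the deposited tables, where all 33 had a match. They fall into 12 genes of the choroid plexus epithelium (Ttr, Enpp2, Folr1, Kl, Clic6, Kcnj13, Prlr, Sostdc1, Otx2, Aqp1, Slc4a5 and Htr2c), 19 genes of motile cilia (Foxj1, Tmem212, Ccdc153, Dynlrb2, Rsph1, Rsph4a, Cfap126, Ak7, Dnah5, Dnah11, Spag17, Hydin, Tekt1, Tekt4, Ccdc39, Ccdc40, Pifo, Fam183b and Tppp3) and 2 further genes often found in ependymal cells, Rarres2 and Mia. The question was which libraries of hippocampal astrocytes carry these transcripts and whether their levels follow injury, epilepsy or hemisphere.

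Astrocytes were bound on magnetic beads by ACSA-2, an astrocyte surface antigen, 4 months after controlled cortical impact (CCI, a mechanical blow to the exposed cortex) or sham surgery. Injured mice that developed post-traumatic epilepsy, judged by repeated seizures, are called PTE+, and injured mice that did not PTE-. There are 20 libraries of the contralateral hippocampus (5 PTE+, 10 PTE- and 5 sham mice) and 17 of the ipsilateral one (4 PTE+, 8 PTE- and 5 sham mice), from 20 mice in all, of which 17 gave both. The labels give the genotype as WT CD31 Injured or WT CD31 Sham, whereas the methods describe adult male CD1 mice, so all groups are wild type and differ in surgery and outcome. Per the methods, the injured mice used for astrocytes received the deeper of the study's impacts. Libraries were made from amplified cDNA with a SMART-Seq V4 kit, and no molecular identifiers are named, so limits on low counts cover counting error only.

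The choroid plexus is a folded epithelium in the ventricles that secretes cerebrospinal fluid, and ependymal cells line the ventricle walls and move that fluid with motile cilia. The hippocampus borders the lateral ventricle and its choroid plexus. Transthyretin (Ttr) is the best known secreted product of the plexus, and FOXJ1 is the transcription factor that, together with RFX factors, turns on the genes of motile cilia. RFX factors bind the X-box, a pair of inverted half-sites near the start of many cilia genes. In bulk libraries, fewer cells of a type and less RNA per cell cannot be told apart.

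An X-box half-site, a feature that the list did not use, was found in 7 of the 15 cilia genes with a promoter. Of these 7, Ccdc153, Dynlrb2 and Fam183b had similar median levels of 241, 224 and 189 TPM (a length-scaled abundance), and Hydin had 1.32 TPM. The promoter sequences of these 4 genes are shown. Each is the 250 bases before the RefSeq transcript start (assembly GRCm38.p6), written from 5′ to 3′ on the gene's strand. Capitals mark the X-box half-site GTTGCC, or GGCAAC on the other strand, and in Fam183b also the full X-box as defined below. The positions are chr11:58801961-58802210 (minus strand) for Fam183b, chr8:116504765-116505014 (plus) for Dynlrb2, chr9:44240427-44240676 (plus) for Ccdc153 and chr8:110266727-110266976 (plus) for Hydin.
Fam183b: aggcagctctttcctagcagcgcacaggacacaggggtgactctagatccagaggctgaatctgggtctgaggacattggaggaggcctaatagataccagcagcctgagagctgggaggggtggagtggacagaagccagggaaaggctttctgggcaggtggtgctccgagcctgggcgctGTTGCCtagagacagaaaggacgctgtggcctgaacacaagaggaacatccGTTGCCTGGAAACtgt
Dynlrb2: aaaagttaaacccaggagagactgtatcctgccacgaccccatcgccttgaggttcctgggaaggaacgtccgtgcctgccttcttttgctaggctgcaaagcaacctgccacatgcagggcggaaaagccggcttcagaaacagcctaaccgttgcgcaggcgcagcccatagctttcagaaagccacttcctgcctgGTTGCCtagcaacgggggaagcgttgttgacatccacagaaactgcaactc
Ccdc153: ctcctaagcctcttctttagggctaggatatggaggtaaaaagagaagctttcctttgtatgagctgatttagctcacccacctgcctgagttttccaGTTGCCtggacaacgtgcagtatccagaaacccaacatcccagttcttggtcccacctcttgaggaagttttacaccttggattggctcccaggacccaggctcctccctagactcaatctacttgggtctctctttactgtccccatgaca
Hydin: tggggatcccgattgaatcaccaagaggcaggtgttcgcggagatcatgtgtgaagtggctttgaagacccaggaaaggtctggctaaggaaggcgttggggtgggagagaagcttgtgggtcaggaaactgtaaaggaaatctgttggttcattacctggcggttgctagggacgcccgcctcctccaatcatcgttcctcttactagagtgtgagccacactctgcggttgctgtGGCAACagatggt

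Among the 15 cilia genes with a RefSeq promoter, 7 (46.7%) held the half-site on either strand within 250 bases before to 50 after the start, against 14.1% of all 27025 genes with a promoter. The 7 were Ccdc153, Dynlrb2, Fam183b, Hydin, Pifo, Tekt1 and Tekt4. The share was 49.1% (27 of 55) among other cilia genes, 28.6% (2 of 7, Aqp1 and Otx2) among the choroid plexus genes and 10.7% (3 of 28) among other choroid plexus genes. A full X-box was taken as GTTNCC and GGNAAC with 0 to 3 bases between them, and no other form was searched. This pattern stood in 2 of the 15, as GTTGCCTGGAAAC from -16 to -4 in Fam183b and as GTTCCCTTGGCAAC from -20 to -7 in Pifo, counted from the start. It stood in 0.936% of all genes, and in these 2 genes the full site contains a half-site. Of the other cilia genes 1 of 55 (1.82%) held a full X-box, and of the choroid plexus genes 0 of 7. The forkhead motif TGTTTAC or GTAAACA was found in Ak7 and Prlr (4.05% of all genes), and the OTX motif TAATCC or GGATTA in Dnah11, Pifo and Otx2 itself (8.14%). These matches describe letters in the windows and say nothing of binding.

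The labelled cell type was present in every library. Total counts ran from 25371887 to 59846479, and all 10 astrocyte markers (Aqp4, Aldh1l1, Slc1a2 and others) had more than 3 counts in all 37 libraries. Their summed level had a median of 25903 CPM (counts per library, scaled to a common size) over 35 libraries. The other 2 libraries, both ipsilateral and both from PTE- mice (a8_11 and a9_12), had the lowest astrocyte sums, 10892 and 17298 CPM. They also stood apart in the genes described here, and group comparisons that hold them are also given without them.

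In these 2 libraries the 12 choroid plexus genes summed to 5295 CPM (a8_11) and 6590 CPM (a9_12), which was 35.9 and 44.7 times the median of the other 35 libraries, 147 CPM. The other 35 ran from 17.6 to 926 CPM, so neither library overlapped with them. The 19 cilia genes summed to 4897 CPM in a8_11 and 2775 CPM in a9_12, 5.87 and 3.33 times the median of the others, 834 CPM. Here a8_11 was the highest library, whereas a9_12 lay below 1 other, the contralateral PTE- library of a9_15, at 3197 CPM. Rarres2 and Mia together gave 1239 CPM in a8_11 and 331 CPM in a9_12, against a median of 153 CPM and a highest value of 391 CPM elsewhere.

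Ttr and Enpp2 led the sum in both libraries, and the remaining genes differed between them. In a8_11, Ttr stood at 3988 CPM, Enpp2, which encodes the secreted lysophospholipase autotaxin, at 677 CPM, Folr1, a folate receptor, at 341 CPM and Sostdc1, a secreted BMP and Wnt modulator, at 289 CPM. Only 5 of the 12 choroid plexus genes passed 3 counts there, the fifth being Kl with 7 counts, while Clic6, Kcnj13, Otx2, Aqp1, Slc4a5 and Htr2c were at 0. In a9_12, Ttr stood at 3923 CPM and Enpp2 at 2101 CPM, and all 12 passed 3 counts, from Folr1 at 134 CPM and Clic6 at 117 CPM down to Prlr at 15.1 CPM and Aqp1 at 12 CPM. Of the cilia genes, a8_11 had 14 of 19 above 3 counts, with Rsph4a, Ak7, Dnah11 and Tekt1 at 0, and a9_12 had 19 of 19. The library of a8_11 also had the fewest detected genes, 9020 against a median of 14343 over the 37 libraries.

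Across the 37 libraries, the highest value of a choroid plexus gene lay in a8_11 for 3 genes (Ttr, Folr1 and Sostdc1), in a9_12 for 8, and for Htr2c in the ipsilateral PTE+ library of a9_19. The cilia genes were less concentrated, with 8 highest in a8_11, Ccdc40 in a9_12 and 10 elsewhere. Markers of other cell types took different values in the 2 libraries. Summed neuron markers were 37.7 CPM in a8_11 and 104 CPM in a9_12 against a median of 217 CPM, summed endothelial markers 1384 and 169 against 509 CPM, and summed microglia markers 301 and 57.6 against 240 CPM. The contralateral libraries of the same 2 mice did not share the excess, at 366 CPM (a8_11) and 113 CPM (a9_12) of choroid plexus genes, with Ttr at 225 CPM and 0.

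**Figure D1:**
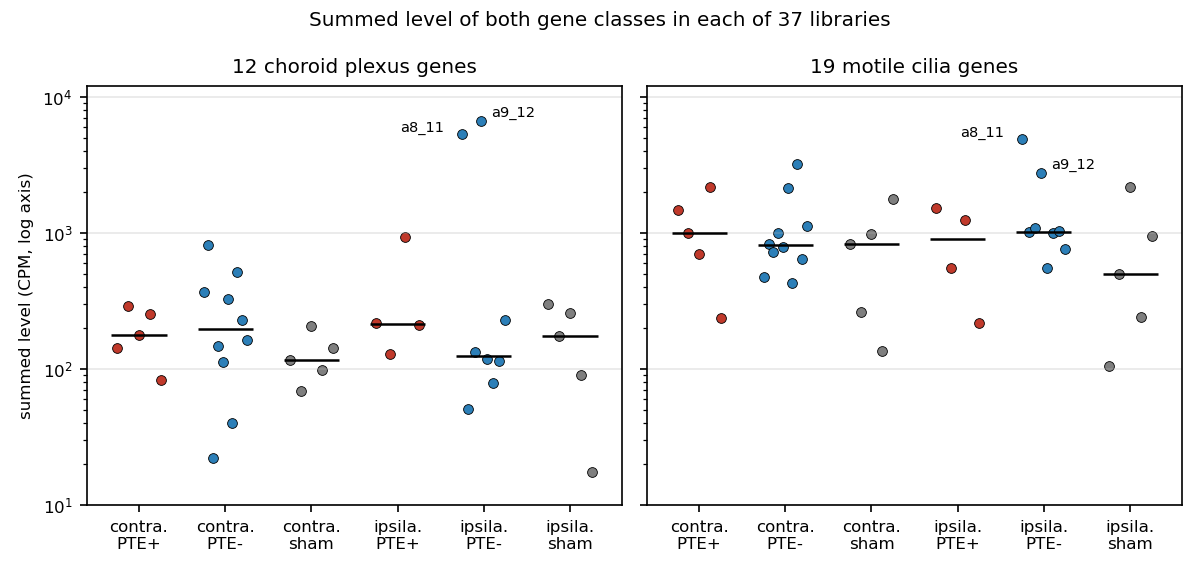
Summed level (CPM, log axis) of the 12 choroid plexus genes on the left and the 19 motile cilia genes on the right, 1 point per library in 6 groups of hemisphere and outcome, with the median as a line. The ipsilateral PTE- libraries of a8_11 and a9_12 lie at 5295 and 6590 CPM of choroid plexus genes, above the next highest library at 926 CPM, whereas for the cilia genes 1 contralateral PTE- library at 3197 CPM lies between them.

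Apart from these 2, no group stood out by its sums. The choroid plexus sum had a median of 176 CPM (83.3 to 290) in contralateral PTE+, 197 CPM (22.2 to 809) in PTE- and 116 CPM (68.3 to 207) in sham mice. On the ipsilateral side it was 215 CPM (128 to 926), 125 CPM (50.4 to 6590) and 175 CPM (17.6 to 300), and all groups of a hemisphere overlapped. Enpp2 weighed heavily in these medians. Over the 37 libraries the choroid plexus sum had a median of 164 CPM, and of 46.3 CPM without Ttr and Enpp2. Enpp2 alone had a median of 99.6 CPM and Ttr of 0. The cilia sum had contralateral medians of 1004 CPM (238 to 2180), 813 CPM (430 to 3197) and 824 CPM (136 to 1777) in PTE+, PTE- and sham mice, and ipsilateral medians of 895 CPM (219 to 1523), 1017 CPM (550 to 4897) and 502 CPM (106 to 2176). The choroid plexus genes took at most 0.749% of the counts of a library and the cilia genes at most 0.480%.

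The 2 classes differed in how regularly they were detected. Rarres2, a secreted chemoattractant also called chemerin, and the cilia genes Foxj1, Tmem212, Dynlrb2, Rsph1, Cfap126, Fam183b and Tppp3 had more than 3 counts in 37 of 37 libraries. All 19 cilia genes did so together in 19 libraries and at least 16 of them in 29. Only 3 choroid plexus genes came near this, Enpp2 (35 libraries), Folr1 (34) and Sostdc1 (29). The others passed in 25 libraries (Kl), 21 (Clic6), 19 (Kcnj13), 15 (Otx2), 14 (Prlr and Htr2c), 12 (Ttr), 7 (Aqp1) and 3 (Slc4a5), and at least 10 choroid plexus genes passed together in 4 libraries. Among cilia genes the fewest libraries were found for the axonemal dynein heavy chains Dnah11 (24) and Dnah5 (29) and for Ccdc40 (29), a factor for dynein arm assembly.

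Per transcript length, on the TPM scale, the median level over the 37 libraries was highest for Rarres2 at 387 TPM, followed by the tubulin-binding Tppp3 (288), Ccdc153 (241), the radial spoke gene Rsph1 (236), Tmem212 (235) and the dynein light chain Dynlrb2 (224). Fam183b stood at 189 TPM, and Mia, a small secreted protein, at 177 TPM. Enpp2 at 51.6 TPM and Folr1 at 44.0 TPM led the choroid plexus genes and lay between Mia and Cfap126 (36.7). The regulator Foxj1 stood at 11.3 TPM, and the long transcripts of the central apparatus genes Spag17 and Hydin and of the dyneins were lowest among cilia genes, at 3.79 (Spag17), 1.32 (Hydin), 0.80 (Dnah5) and 0.34 TPM (Dnah11). The medians of Ttr, Otx2, Aqp1, Slc4a5 and Htr2c were 0. Neighbours in this order overlapped across libraries.

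The counting did not state its use of strand, and 7 of the 33 genes share exon bases with another gene: Ccdc39, Dnah11, Kcnj13, Rarres2 and Spag17 with one on the opposite strand, and Mia and Prlr with another gene model on the same strand. Reads from such shared bases could have been split, so their levels are less certain.

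**Figure D2:**
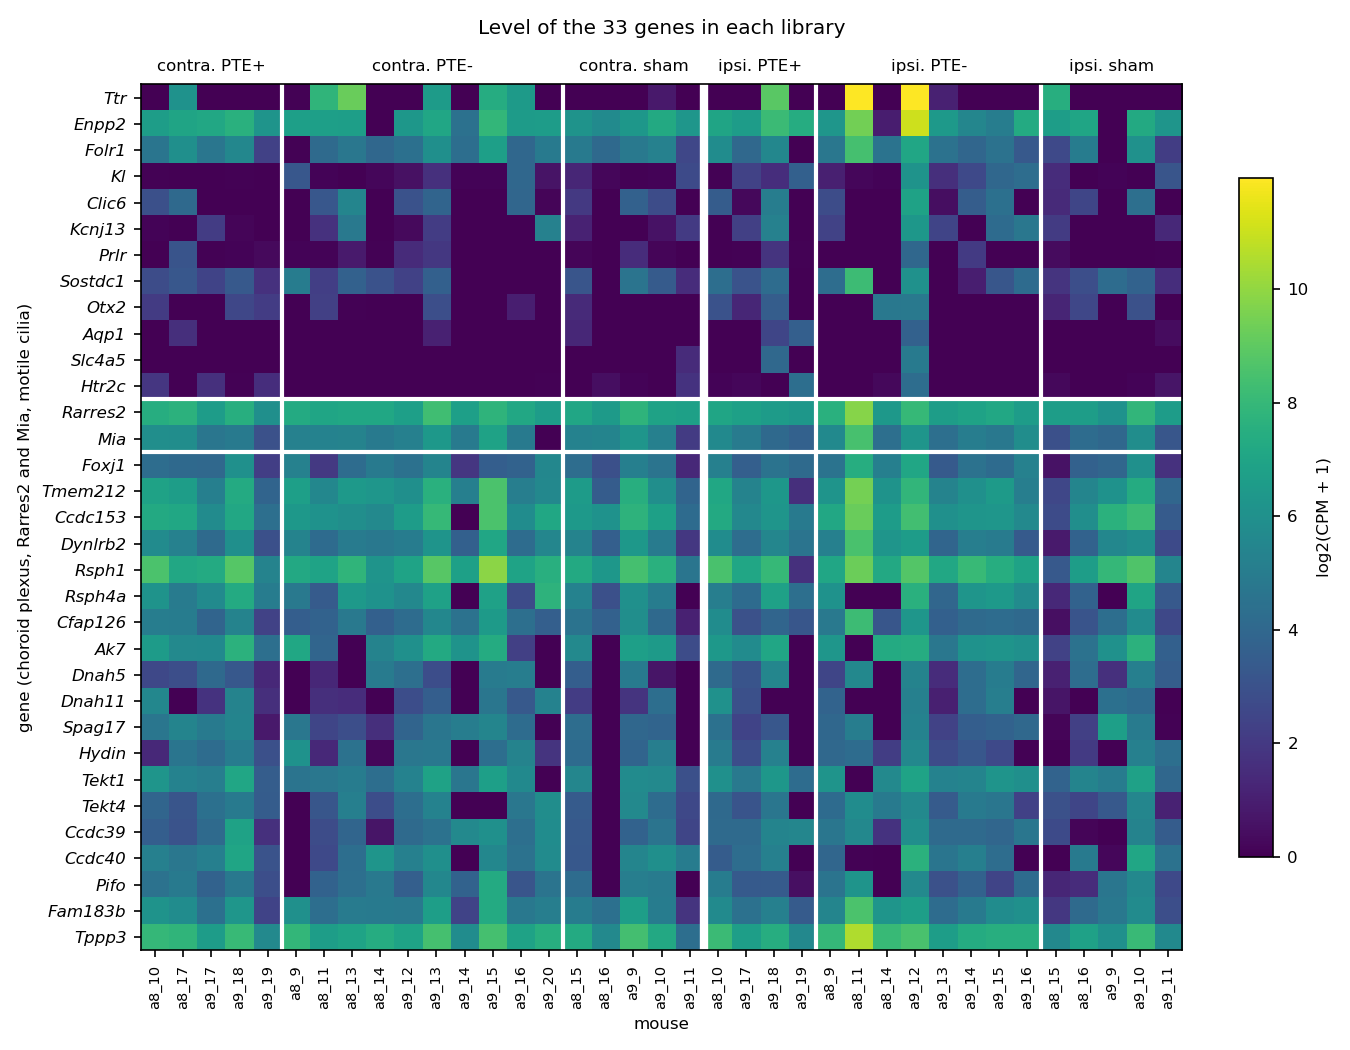
Heat map of log2(CPM + 1) for the 33 genes (rows, choroid plexus genes on top, then Rarres2 and Mia, then cilia genes) in the 37 libraries (columns, by hemisphere and group). Most choroid plexus rows are dark outside a few libraries, with Ttr above 3 counts in 12 of 37, whereas Rarres2 and 7 cilia genes are above 3 counts in all.

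Ttr was split between libraries. It was at 0 in 24 of 37, and the 2 libraries that stood apart held 80.6% of its summed CPM. In contralateral PTE+ mice it was 67.8 CPM in a8_17 and 0 in the other 4. In contralateral PTE- mice it was 599 CPM in a8_13, 225 in a8_11, 169 in a9_15, 93.7 in a9_13 and 90.9 in a9_16, and at most 0.0575 CPM in the other 5. In contralateral sham mice it was 0.760 CPM in a9_10 and 0 in the other 4. On the ipsilateral side 1 of 4 PTE+ libraries (a9_18, 471 CPM) and 1 of 5 sham libraries (a8_15, 183 CPM) held it, and in PTE- mice a9_13 had 1.13 CPM beside the 2 high libraries. Every group but the contralateral sham mice thus held libraries with much Ttr beside libraries with none.

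The steadier genes of both classes overlapped between groups. Enpp2 had contralateral medians of 128 CPM in PTE+ (71.5 to 193), 99.7 CPM in PTE- (0 to 244) and 78.1 CPM in sham mice (51.7 to 152), and ipsilateral medians of 148 CPM (95.6 to 288), 82.5 CPM (0.915 to 2101) and 101 CPM (0 to 153). Folr1 had contralateral medians of 25.3, 19.7 and 27.6 CPM in PTE+, PTE- and sham mice and ipsilateral medians of 30.7, 22.1 and 5.19 CPM. Rarres2 had medians between 99.3 CPM (ipsilateral sham) and 172 CPM (contralateral PTE+) in the 6 groups and a lowest library of 61.7 CPM. Clic6, an intracellular chloride channel family member, had group medians from 0 to 5.11 CPM, with the highest libraries at 117 CPM (ipsilateral PTE- a9_12) and 42.3 CPM (contralateral PTE- a8_13). Prlr had group medians of at most 0.115 CPM.

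Among cilia genes, Rsph1 had medians from 100 CPM (ipsilateral sham) to 197 CPM (ipsilateral PTE+), with single libraries from 2.12 CPM (ipsilateral PTE+ a9_19) to 936 CPM (contralateral PTE- a9_15). Tmem212, a membrane protein of ciliated cells, had medians from 42.2 CPM (ipsilateral sham) to 102 CPM (contralateral PTE+), Ccdc153, a coiled-coil protein, from 58.5 to 137 CPM in the same groups, and Dynlrb2 from 12.6 to 37 CPM in the same groups. The ipsilateral sham mice thus had the lowest median of the 6 groups for each of these 4 genes. The libraries that led them were the ipsilateral PTE- library of a8_11, with 707 CPM of Tmem212, 597 CPM of Ccdc153 and 367 CPM of Dynlrb2, and the contralateral PTE- library of a9_15, with 382, 376 and 134 CPM. Other cilia genes dropped out more often. Ak7, an adenylate kinase of cilia, had medians between 21.6 and 70.5 CPM but was at 0 in 5 of 37 libraries, among them the ipsilateral one of a8_11. Hydin, Spag17 and Dnah11 were at 0 in at least 1 library of most groups.

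Levels rose and fell together among cilia genes and much less among choroid plexus genes. Over the 37 libraries, which share their preparation and differ in depth, the median Spearman rho was 0.503 over the 171 pairs of cilia genes, 0.226 over the 66 pairs of choroid plexus genes and 0.147 over the 228 pairs across the classes. Several choroid plexus genes were tied at 0 in many libraries, such as Slc4a5 in 32, Aqp1 in 29 and Ttr in 24. The part of such ties in the lower rho was not tested. Rarres2 and Mia had a median rho of 0.506 with the cilia genes. Within the choroid plexus genes, Folr1 lay with the cilia genes, with a median rho of 0.538 against them and 0.138 against its own class, and so did Sostdc1 (0.473 and 0.200). Kl, the co-receptor of FGF23, was near 0 with both (-0.11 and 0.03), as was the serotonin receptor Htr2c (-0.16 and -0.02). Ttr had 0.300 with its own class and 0.215 with the cilia genes.

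The sums of both classes had a rho of 0.424. Without Ttr and Enpp2 it was 0.803, and without Folr1 and Sostdc1 as well it was 0.192. The number of cilia genes above 3 counts had a rho of 0.674 with the number of detected genes in a library, and that of the choroid plexus genes 0.758, while the cilia sum had -0.16. The astrocyte marker sum had -0.39 with the cilia sum and -0.14 with the choroid plexus sum. Among the 14950 genes with more than 3 counts in at least 10 libraries, the genes outside the list whose log2(CPM + 1) was most like that of Foxj1 were ENSMUSG00000118506 (Pearson r = 0.845), Fhl1 (0.834), Lbp (0.832), Odf3b (0.799) and Dnaaf3 (0.794). The listed genes Fam183b, Tppp3 and Dynlrb2 ranked 1, 3 and 5. For Ttr they were Gm17018 (0.606), Car12 (0.60), Idh2 (0.593), Szrd1 (0.586) and Ifi27 (0.585), and the first listed gene, Rarres2, ranked 16 (0.530).

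**Figure D3:**
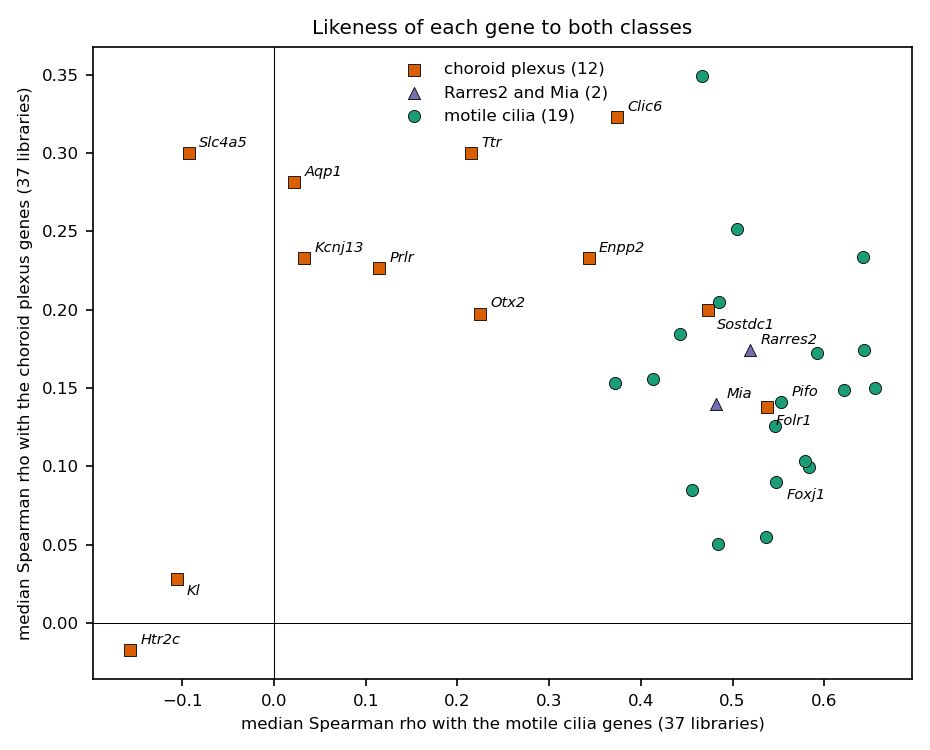
Each of the 33 genes by its median Spearman rho over 37 libraries with the 19 cilia genes (x axis) and with the 12 choroid plexus genes (y axis), squares for choroid plexus genes, circles for cilia genes and triangles for Rarres2 and Mia. Folr1 (x = 0.538) and Sostdc1 (x = 0.473) lie among the circles, and Kl (x = -0.11) and Htr2c (x = -0.16) lie left of 0.

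Group comparisons were made in edgeR over all genes that passed a filter on low counts, 14642 contralateral and 14903 ipsilateral, with the 3 groups of a hemisphere in 1 fit, so that the comparisons share libraries. Slc4a5 did not pass in either hemisphere and Aqp1 not in the contralateral one, which left 31 and 32 of the 33 genes. No listed gene had an adjusted p under 0.05 by edgeR's quasi-likelihood test in any comparison (the smallest was 0.442), nor with limma. Over all genes, edgeR gave 1 such gene in the contralateral comparison of PTE+ with PTE- and 0 elsewhere. DESeq2, as an alternative, gave such values for Kl (0.00229) and Htr2c (0.00844) in the contralateral comparison of PTE+ with PTE-, for Aqp1, Htr2c and Kl between the hemispheres of injured mice, and for Htr2c (0.00131) in the side difference of injured against sham mice. Its counts over all genes in these 3 comparisons were 85, 255 and 139. The counts that follow are therefore of genes with an unadjusted p under 0.05, called changes below, beside the share of all genes that pass the same rule.

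In the contralateral hippocampus of PTE+ against PTE- mice, 2 of 31 listed genes changed (6.45%), against 2.21% of all genes, Kl lower and Htr2c higher. Kl (chromosome 5, 150952607 to 150993817, GRCm38) was at or below the limit of 3 counts in all 5 PTE+ libraries, with 2, 1, 0, 2 and 0 counts in a8_10, a8_17, a9_17, a9_18 and a9_19. In the 10 PTE- libraries it ran from 0 through a median of 0.296 CPM to 14.8 CPM (a9_16), and 7 of the 10 passed 3 counts. In sham mice it was 1.45 CPM in a8_15, 0.147 in a8_16, 0.0573 in a9_9, 0.0921 in a9_10 and 5.51 in a9_11. The PTE+ and sham libraries did not overlap, although the lowest sham library (a9_9, 3 counts) was itself at the limit, and PTE- libraries spanned both.

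Pooled over libraries, Kl in PTE- mice was 107 times its PTE+ level, and 61.9 times without a9_16. The exact 95% counting interval of 45.8 to 331 covers counting error alone and not the spread between mice. Of the 1068 counts in PTE- mice, a9_16 held 502 and a8_9 held 438. The fitted log2 fold change of PTE+ against PTE- was -6.69 ± 2.23 (SE, edgeR p = 0.00670, adjusted p = 1.0), the size of which depends on the near-zero group. An exact permutation test on log2(CPM + 1) gave p = 0.00666 (two-sided, n = 5 and 10), 1 of the tests made for every listed gene in this comparison. Kl was also lower in PTE+ than in sham mice (log2 fold change -5.81 ± 2.20, edgeR p = 0.0148, adjusted p = 1.0, exact permutation p = 0.00794, n = 5 and 5), where it was the only change among 31 genes (3.23%, against 1.23% of all genes). The permutation p against sham rests on groups that do not overlap. They were parted only by PTE+ a8_10 (2 counts, 0.0528 CPM) lying below sham a9_9 (3 counts, 0.0573 CPM), both at the counting limit. Without the sham library of a9_11, which held most of the sham counts, the edgeR p against sham was 0.0591.

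Htr2c (chromosome X, 146962513 to 147197277), which encodes the serotonin 2C receptor of the choroid plexus and also of some neurons, had the opposite pattern. In contralateral PTE+ mice it was 2.77 CPM in a8_10, 2.13 in a9_17, 1.97 in a9_19, 0.0352 in a9_18 and 0 in a8_17. In the 10 PTE- libraries it was at 0 in 9, and a9_20 held 1 count. In sham mice it was 2.34 CPM in a9_11, 0.357 in a8_16, 0.0955 in a9_9, 0.0308 in a8_15 and 0 in a9_10. Of these, 3 PTE+ libraries and 3 sham libraries thus passed 3 counts and no PTE- library did.

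The pooled level in PTE+ mice was 516 times that in PTE- mice, where it rests on 1 count, so the 95% counting interval ran from 91.8 to 20448. This interval, too, leaves out the spread between mice. The fitted log2 fold change was 7.80 ± 1.57 against PTE- (edgeR p = 6.03e-05, adjusted p = 0.442, exact permutation p = 0.0140, n = 5 and 10). PTE- against sham gave -6.53 ± 1.5 (edgeR p = 0.000251, adjusted p = 0.917, exact permutation p = 0.0140, n = 10 and 5), and the pooled sham level over PTE- fell from 215 to 54.1 times without a9_11. Neuron markers were high in some of these libraries, with sums of 90.9 CPM in a8_10, 411 in a9_17 and 1244 in a9_19 among PTE+ and 838 in the sham library of a9_11, beside a median of 217 CPM. Over the 37 libraries, Htr2c had a rho of 0.279 with the neuron marker sum and -0.36 with Ttr, and the part of neuronal RNA in its level was not tested.

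PTE- against sham mice gave 2 changes of 31 genes (6.45%, against 1.54% of all genes), Htr2c lower and Ttr higher. Ttr had a fitted log2 fold change of 9.55 ± 3.45 (edgeR p = 0.0114, adjusted p = 1.0), but 5 of 10 PTE- libraries had at most 0.0575 CPM and the groups overlapped, and the exact permutation p was 0.131 (n = 10 and 5). No cilia gene was called. Their fitted log2 fold change of PTE- against sham was positive for all 19, with a median of 0.51 against 0.07 over all genes, and that of PTE+ against sham for 18 of 19, with a median of 0.36 against 0.03. By the group means of log2(CPM + 1) the counts were 17 and 19 of 19. Both comparisons use the same 5 sham libraries. For PTE+ against PTE- the direction depended on the scale, with 7 positive and 12 negative in the fit but 13 higher and 6 lower by mean log2(CPM + 1). Foxj1, for example, ran from 3.69 through 15.9 to 64.2 CPM (lowest, median and highest) in PTE+, from 2.70 through 19.3 to 45.0 in PTE- and from 1.57 through 18.3 to 34.9 in sham mice, which overlapped throughout.

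**Figure D4:**
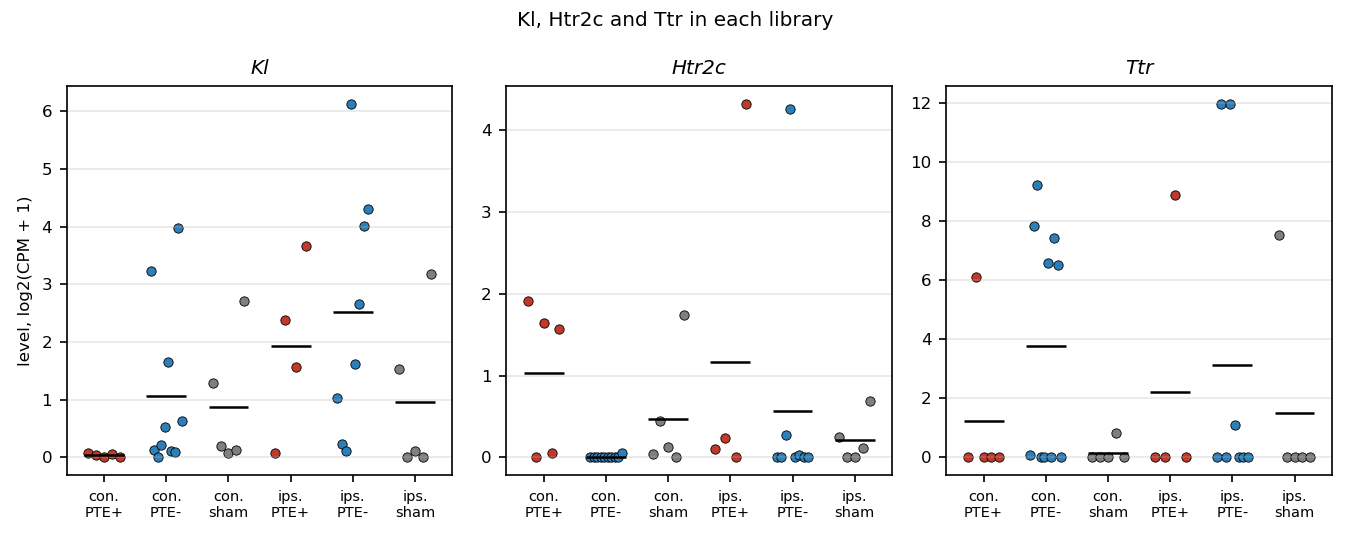
Level of Kl, Htr2c and Ttr as log2(CPM + 1), 1 point per library in 6 groups, with the group mean as a line. The contralateral PTE+ libraries lie at the bottom for Kl (at most 0.0528 CPM), the contralateral PTE- libraries at the bottom for Htr2c (at most 0.0368 CPM), and Ttr is split in each group between libraries at or near 0 and libraries far above it, except in contralateral sham mice, where its highest value was 0.760 CPM.

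In the ipsilateral hippocampus, PTE- mice had higher Tppp3, Fam183b and Mia than sham mice, 3 of 32 listed genes (9.38%, against 0.812% of all genes in that direction and 1.58% in both). Tppp3 (chromosome 8, 105467493 to 105471526) ran from 102 through 217 to 1506 CPM in the 8 PTE- libraries, and in sham mice it was 47.3 CPM in a8_15, 115 in a8_16, 62.5 in a9_9, 271 in a9_10 and 50.2 in a9_11. Its log2 fold change was 1.82 (edgeR p = 0.0154, exact permutation p = 0.0249, n = 8 and 5). All 8 PTE- libraries lay above 3 of the 5 sham libraries, and the groups overlapped through a8_16 and a9_10.

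Fam183b, a cilia gene with no settled role, ran from 17.5 through 58.8 to 375 CPM in PTE- mice and was 2.88 CPM in a8_15, 16.3 in a8_16, 26.3 in a9_9, 53.9 in a9_10 and 6.43 in a9_11 among sham mice (log2 fold change 2.19, edgeR p = 0.0163, exact permutation p = 0.0218, n = 8 and 5). Mia ran from 19.6 through 41.1 to 352 CPM in PTE- mice and was 6.60 CPM in a8_15, 17.7 in a8_16, 14.7 in a9_9, 56.8 in a9_10 and 8.16 in a9_11 among sham mice (1.96, edgeR p = 0.0281, exact permutation p = 0.0357, n = 8 and 5). All 3 adjusted p-values were 1.0 in edgeR. The highest value of each was the library of a8_11. Without it, Tppp3 had a log2 fold change of 1.0 (edgeR p = 0.0584) and Fam183b 1.39 (p = 0.0569), and without both a8_11 and a9_12 no listed gene changed.

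Of the 19 cilia genes, 17 had a positive fitted log2 fold change of PTE- against sham (median 0.79 against 0.02 over all genes), and so had all 11 choroid plexus genes tested (median 2.79). Without a8_11 and a9_12, 12 of 19 cilia genes were positive (median 0.33 against 0.04 over all genes), and 4 of the 7 choroid plexus genes that still passed the filter (median 0.26). The other choroid plexus genes had passed the filter only with these PTE- libraries, so their positive sign was not independent of it. Foxj1 ran from 9.36 through 29.0 to 172 CPM in PTE- and from 0.50 through 12.3 to 63.3 CPM in sham mice. Of 65 cilia genes outside the list, 2 were called higher, Cfap100 and Enkur, and of 26 choroid plexus genes outside it 2, Sulf1 and Igf2, beside the 0.812% of all genes. The 65 had a median of 0.88 with 55 positive. Without both libraries the median was 0.37 with 46 positive, and of these 4 genes Cfap100 was still called.

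PTE+ against PTE- mice gave no change on the ipsilateral side (0 of 32, smallest edgeR p = 0.0624, against 1.75% of all genes), nor did PTE+ against sham (0 of 32, smallest p = 0.105, against 1.66%). At the same unadjusted threshold DESeq2 called Fam183b and Mia lower in the first and 0 listed genes in the second, and limma voom called Otx2 in the first and Dynlrb2 in the second. The shares of all genes were 3.2% and 2.3% in DESeq2 and 3.19% and 3.03% in limma voom. The fitted log2 fold change of PTE+ against PTE- was negative for 16 of 19 cilia genes (median -0.95 against -0.01 over all genes) and 9 of 11 choroid plexus genes (median -1.21), none of them called. Without a8_11 and a9_12 this direction was lost: 9 of 19 cilia genes were negative (median 0.11) and 1 of 7 choroid plexus genes (median 0.58). The choroid plexus genes that dropped out had passed the filter only with these PTE- libraries, so their negative or positive sign was not independent of it. Foxj1 in the 4 PTE+ libraries ran from 11.3 to 35.4 CPM with a median of 19.4, within the range of PTE- mice. Among choroid plexus genes outside the list, Col8a1, Car12 and Ace were lower in PTE+ than in PTE- mice (3 of 26, and Col8a1 alone without both libraries), and of the 65 other cilia genes 0 changed.

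Hemispheres were compared in the 17 mice with both libraries, over 15731 genes. In injured mice 5 of 32 listed genes were higher on the ipsilateral side (15.6%, against 1.70% of all genes in that direction and 3.71% in both), and all 5 were choroid plexus genes, Kl, Htr2c, Ttr, Aqp1 and Kcnj13. That fit did not pair the libraries of a mouse. With the mouse as a block the count was 1 of 32, Kl (log2 fold change 4.37, edgeR p = 0.0267), beside 1.32% of all genes. All 11 choroid plexus genes tested had a positive fitted log2 fold change, with a median of 2.36 against -0.02 over all genes, as had 10 of 19 cilia genes (median 0.09). The choroid plexus count was 8 of 11 (median 2.31) with the mouse as a block and 9 of 11 (median 1.45) without the ipsilateral libraries of a8_11 and a9_12, and the cilia count 8 and 4 of 19 (medians -0.03 and -0.34). Choroid plexus genes outside the list did not share this direction. Of these, 15 of 29 were positive (median 0.02), and 10 of 29 with the mouse as a block (median -0.35). Counted by mouse the direction differed between the listed choroid plexus genes. Of 12 injured mice, Kl was higher ipsilaterally in 9 and lower in 3. The counts were 8 and 4 for Enpp2 and Sostdc1, 7 and 3 for Clic6, 7 and 2 for Kcnj13, and 3 and 1 for Aqp1. They were 6 and 6 for Folr1, 5 and 4 for Otx2, 4 and 3 for Htr2c, 3 and 4 for Ttr and 3 and 8 for Prlr. By mean log2(CPM + 1) all 11 were higher ipsilaterally.

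Kl was the most regular of the 5. In the 4 PTE+ mice it was 0.0528 CPM contralaterally and 0.0536 ipsilaterally in a8_10, 0 and 4.21 in a9_17, 0.0352 and 1.95 in a9_18, and 0 and 11.7 in a9_19. In the 8 PTE- mice it had a median of 0.296 CPM (highest 14.8) contralaterally and of 3.68 CPM (0.0851 to 69.0) ipsilaterally. It was higher ipsilaterally in 9 of 12 injured mice, and it passed 3 counts in 6 of 12 contralateral and 11 of 12 ipsilateral libraries. The log2 fold change was 4.80 ± 1.55 (edgeR p = 0.00410, adjusted p = 0.866) and the exact paired permutation p was 0.0356 (n = 12 pairs). In sham mice 3 of 5 were higher ipsilaterally, and the side difference of injured against sham mice was not past the threshold (4.33 ± 2.33, edgeR p = 0.0725).

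The remaining 4 rested on few libraries. Kcnj13, an inward rectifier potassium channel, was higher ipsilaterally in 7, lower in 2 and equal in 3 of 12 injured mice (exact paired permutation p = 0.0430, n = 12 pairs), led by a9_12 at 79.2 CPM and a9_18 at 37.2 CPM. Aqp1, the water channel of the plexus, was at 0 on both sides in 8 of 12 and was read ipsilaterally in a9_12 (12 CPM), a9_19 (11.3) and a9_18 (4.58; exact p = 0.25). Htr2c was higher in 4, lower in 3 and equal in 5 (exact p = 0.547), and lower in 3 of the 4 PTE+ mice, with 19 CPM in a9_19 and 18.1 in a9_12. Ttr was higher in 3, lower in 4 and equal in 5 (exact p = 0.812), and its fitted log2 fold change fell from 9.59 to 1.91 without the ipsilateral PTE+ library of a9_18, since all 4 contralateral PTE+ libraries of this fit were at 0. Without the ipsilateral libraries of a8_11 and a9_12, 2 of the 5 were called, Kl (4.31, edgeR p = 0.00740) and Htr2c (2.72, p = 0.0365), beside 3.99% of all genes.

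In sham mice no listed gene changed between sides (0 of 32, smallest edgeR p = 0.0538, against 2.05% of all genes), nor in DESeq2 or limma voom, and 5 pairs cannot give an exact two-sided p below 0.0625. The side difference of injured against sham mice gave 2 of 32 (6.25%, against 1.09% of all genes in that direction and 2.40% in both), Htr2c (7.27, edgeR p = 0.0228) and Aqp1 (8.96, edgeR p = 0.0275), and 0 with the mouse as a block. The summed choroid plexus level was higher ipsilaterally in 3 of 4 PTE+, 4 of 8 PTE- and 3 of 5 sham mice, and the cilia sum in 1 of 4, 6 of 8 and 3 of 5. The contralateral and ipsilateral sums of a mouse had a rho of 0.306 for choroid plexus genes and 0.377 for cilia genes over the 17 mice. Outside the list, Kcne2, Steap1 and Car12 were called higher ipsilaterally in injured mice among 29 choroid plexus genes, and Dnaic2 and Rsph9 among 65 cilia genes, beside the 1.70% of all genes. With the mouse as a block Dnaic2 alone was called, and without the ipsilateral libraries of a8_11 and a9_12 Kcne2 and Steap1, with F5 and Slc16a8 then lower. In sham mice 3 of the same 29 choroid plexus genes were also called between sides, Kcne2, Cldn1 and Slc16a8. Of these 2 were higher and 1 lower ipsilaterally, beside 2.05% of all genes in both directions, and 0 were called with the mouse as a block.

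**Figure D5:**
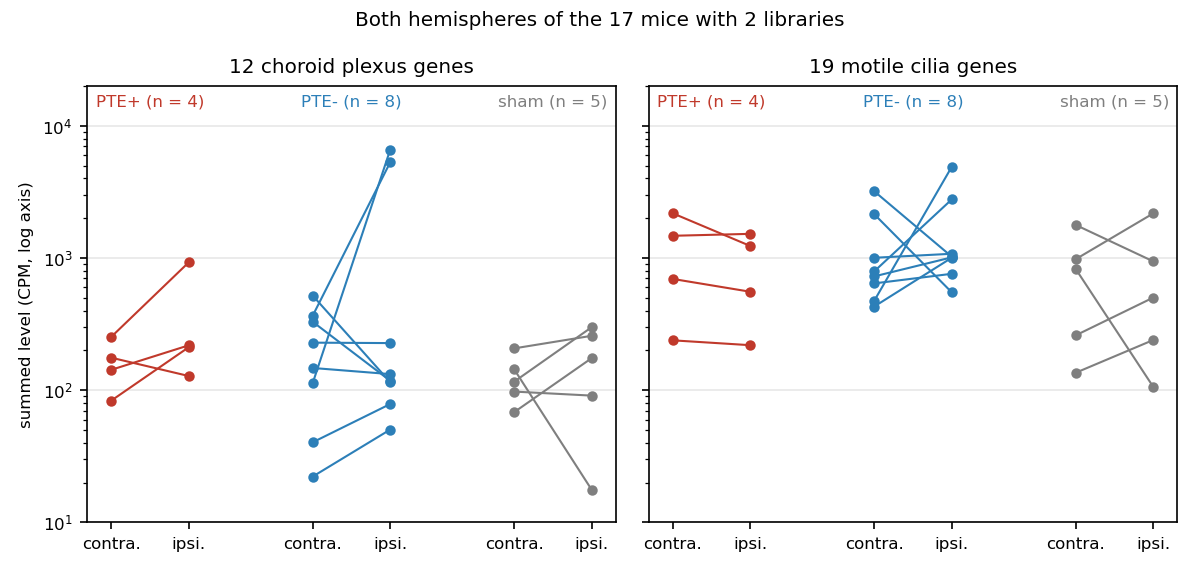
Summed level (CPM, log axis) of the choroid plexus genes on the left and the cilia genes on the right in the contralateral and ipsilateral library of each of 17 mice, joined by a line and coloured by group. In 2 of the 8 PTE- mice the choroid plexus sum climbs from 366 to 5295 and from 113 to 6590 CPM, while the lines of the other mice run in both directions.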

How the data were processed

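The data come from ACSA-2-selected hippocampal astrocytes in 37 libraries of 20 mice. Per the labels' processing notes, reads were trimmed with Trim Galore 0.6.4 and quantified with RSEM 1.2.28 and Bowtie2 2.4.1 on mm10, and the authors compared groups with DESeq2 1.36.0. The annotation release and the use of strand are not given in the sources used here. The authors deposited expected counts per gene, as whole numbers without normalization, and TPM (a length-scaled transcript abundance) from the same run.

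Symbols and positions came from GENCODE vM21 on GRCm38, and promoters from RefSeq (GRCm38.p6; 23 of 33 genes had one, 5 of them more than 1, and all promoters of a gene were searched). The listed genes and the marker lists were chosen with earlier results of these data known. CPM were computed with TMM factors over all 37 libraries. The counting limit was set at 3 counts per library. Counts were tested in R 4.3.3 with edgeR 4.0.16 (filterByExpr, TMM, quasi-likelihood F test, Benjamini-Hochberg adjustment over all genes tested), with the 3 groups of a hemisphere in 1 fit and, for hemispheres, 34 libraries of 17 mice in 6 groups, where injured mice are the equal-weight mean of PTE+ and PTE-. Simulated counts were also put through these steps. No result of that run is given, so nothing is concluded from it for genes with low counts or a wide spread between libraries. Single genes were compared by two-sided exact permutation tests on log2(CPM + 1) in scipy 1.17.1, in pairs for hemispheres, for every listed gene and without adjustment.

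Values are given for 20 genes named by class and, in each comparison, for the 3 genes in each direction, or fewer, that had the lowest unadjusted p under 0.05. Libraries of the same mouse pair the hemispheres, since the labels give the same mouse. Their deviations from the group means had a median correlation of 0.0860 (-0.07 to 0.24, 17 mice), against -0.02 for other mice of a group. Replicates are separate mice. The names of the mice start with a8 or a9, which the sources used here do not explain, and this prefix was tried as a covariate. The other alternatives were RLE factors, no filter, the 2 compared groups alone, DESeq2 1.42.0, limma 3.58.1 with voom quality weights or on log2(TPM + 1), the mouse as a replicate block, and leaving out each library. Leaving out both libraries that stand apart was added after the data had been seen. Plots were made in matplotlib 3.10.9 under Python 3.11.15.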

Additional observations from a re-analysis of the deposited data

Results flagged for a closer look

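In 30 of 138 tests of a single gene or sum within a group of 4 to 10 libraries (21.7%), the highest or lowest library stood far from the rest of its group. In 22 it was the highest. The cut-off would flag about 1 in 20 for normally distributed values, which levels with many zeros are not. Some tests also share genes, so 1 in 20 is not the chance rate here. Many of these genes are at or near 0 in most libraries, so that 1 library with the transcript is enough.

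The library of a8_11 (ipsilateral PTE-) was set apart by its sum of Rarres2 and Mia (1239 CPM), by Rarres2 (887 CPM), Mia (352 CPM) and Tppp3 (1506 CPM), and at the low end by Ak7 (0 CPM). The ipsilateral PTE- library of a9_12 was set apart by Aqp1 (12 CPM) and Htr2c (18.1 CPM). Among ipsilateral PTE+ libraries, a9_18 was so by Ttr (471 CPM) and Prlr, the prolactin receptor (2.53 CPM), and a9_19 by Htr2c (19 CPM).

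Among ipsilateral sham libraries, a8_15 was set apart by Ttr (183 CPM) and Prlr (0.262 CPM), a9_9 by Enpp2 (0 CPM), a9_11 by Aqp1 (0.332 CPM) and a9_10 by the sum of Rarres2 and Mia (291 CPM). In contralateral sham mice the flags fell on a9_10 for Ttr (0.760 CPM), a8_15 for Aqp1 (1.51 CPM), a9_9 for Prlr (1.85 CPM) and a9_11 for Htr2c (2.34 CPM) and Mia (3.17 CPM, low).

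In contralateral PTE+ mice, a8_17 was set apart by Ttr (67.8 CPM), Aqp1 (2.09 CPM) and Prlr (7.56 CPM), and a9_19 by a low Spag17 (0.770 CPM). In contralateral PTE- mice the low values were Enpp2 in a8_14 (0 CPM), Folr1 in a8_9 (0.0575 CPM), Mia in a9_20 (0 CPM) and Ccdc153 in a9_14 (0 CPM), and the high ones Aqp1 in a9_13 (1.17 CPM) and Htr2c in a9_20 (0.0368 CPM, which is 1 count).

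There were 2 genes that differed between injured and sham mice in their side-to-side difference by the interaction term in edgeR, Htr2c (unadjusted p = 0.0228) and Aqp1 (unadjusted p = 0.0275). Neither passed the adjustment over all genes.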

How the results depend on the processing

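Counts of listed genes with an unadjusted p under 0.05 depended on the tool and on single libraries. The share of all genes passing the same rule moved with the tool too. For ipsilateral PTE- against sham it was 1.58% in edgeR, 6.2% in edgeR without a filter and 3.32% in DESeq2. With limma it was 3.14% on log2(TPM + 1) and 4.95% with voom. For contralateral PTE+ against sham the shares were 1.23%, 6.08%, 2.21%, 1.82% and 4.28% in the same order. In a fit of the 2 compared groups alone, the contralateral counts were 1 for PTE+ against PTE- (2 with all 3 groups), 1 for PTE- against sham (2) and 0 for PTE+ against sham (1). With limma on log2(TPM + 1) the same comparisons gave 1, 1 and 0, ipsilateral PTE- against sham 6 (3), ipsilateral PTE+ against sham 1 (0), the hemispheres of injured mice 2 (5) and the side difference of injured against sham mice 0 (2). With limma voom, contralateral PTE- against sham gave 0 and PTE+ against sham 2, and ipsilateral PTE+ against PTE- 1 (0), PTE- against sham 12, PTE+ against sham 1, injured hemispheres 1 and the side difference 1. Without a filter, PTE+ against sham gave 3 contralaterally and 1 ipsilaterally. DESeq2 gave 2 for ipsilateral PTE+ against PTE-. RLE factors and the prefix left each count within 1.5 times.

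With the mouse as a replicate block, which pairs the hemispheres, injured mice gave 1 gene in place of 5 and the side difference 0 in place of 2, and sham mice stayed at 0. The shares of all genes were then 1.32%, 0.718% and 0.331%. Without the ipsilateral libraries of a8_11 and a9_12, PTE- against sham gave 0, injured hemispheres 2 and the side difference 0, beside 1.69%, 3.99% and 2.55% of all genes. The cause was not tested.

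Leaving out 1 library gave counts of 2 to 3 for contralateral PTE+ against PTE- and for PTE- against sham, and of 0 (without sham a9_11) to 2 for PTE+ against sham. On the ipsilateral side it gave 0 to 1 for PTE+ against PTE-, 0 (without a8_11) to 8 (without sham a9_10) for PTE- against sham and 0 to 1 for PTE+ against sham. Between hemispheres it gave 3 (without the ipsilateral library of a9_18 or a9_12) to 6 for injured mice, 0 to 2 for sham mice and 0 to 4 for the side difference.

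Of single named genes, Kl and Htr2c in the contralateral comparison of PTE+ with PTE-, and Htr2c and Ttr in PTE- against sham, stayed under the threshold without any 1 library. Kl between the hemispheres of injured mice also did. With limma some of these calls were lost. On log2(TPM + 1), Kl in PTE+ against PTE- had p = 0.172, as had Htr2c in PTE- against sham. With limma voom, PTE- against sham gave p = 0.107 for Htr2c and p = 0.0745 for Ttr. Under the threshold stayed Htr2c in PTE+ against PTE- with both, Kl there with voom, and Ttr on log2(TPM + 1). Mia lost its call in 5 of 13 leave-outs. With limma voom 3 log2 fold changes reversed: Htr2c (-0.88) and Ttr (-0.99) between the hemispheres of injured mice and Htr2c in the side difference (-1.56). The Spearman correlation of both sums, 0.424, ran from 0.376 to 0.498 when 1 library was left out and was 0.803 without Ttr and Enpp2.

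The lowest total was 25371887 counts. The spread between libraries of a group was wide, with a common biological coefficient of variation of 1.32 contralaterally and 1.40 ipsilaterally, and 9 of the 12 choroid plexus genes were above 3 counts in 25 libraries or fewer. A gene at 0 in an amplified library cannot be told apart from one that was not captured.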
